A study of Mus musculus with 12 samples.

Results

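The integrin and laminin subunit genes were followed while C2C12 cells, a mouse myoblast line, formed myotubes. Members were taken by gene symbol from the table of total RNA-seq counts: the integrin alpha chains, the integrin beta chains 1 to 8 and the chains of laminin. They came to 37 of 55385 genes, namely 18 alpha chains, 8 beta chains and 11 laminin chains. The compared groups were 3 libraries of undifferentiated C2C12 myoblasts and 3 libraries of C2C12 cells differentiated into myotubes for 7 days. The labels give no transgene, drug or genotype that sets the groups apart, so all 6 libraries share the background of this 1 line, and no label says that the libraries of a group came from separate cultures. The p-values therefore measure the spread between these libraries, which may be technical. The small RNA libraries of mouse embryonic stem cells in the same series were not used here.

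Integrins are receptors of an alpha and a beta chain that span the cell membrane and tie the extracellular matrix to the actin cytoskeleton. Laminins are trimers of an alpha, a beta and a gamma chain and form the sheet of the basement membrane around each muscle fibre. In skeletal muscle the alpha7 chain, paired with beta1, is a main receptor for laminin, and laminin with the alpha2 chain is the main form in the mature fibre. Loss of Lama2 or Itga7 causes muscular dystrophy or myopathy in mice and people.

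Libraries held 18335785 to 54083215 counts. Levels below are CPM (counts divided by library size) after TMM scaling, a correction for library composition. "Higher" and "lower" refer to myotubes against myoblasts, "called" means an adjusted p under 0.05 in edgeR's quasi-likelihood test over all 15932 tested genes, and fold changes are on the log2 scale with their standard error (SE). The 15 sarcomere markers summed to 114 to 251 CPM in myoblasts and to 11526.5 to 27110 CPM in myotubes, and 15 of 15 were higher. The 10 proliferation markers summed to 3300 to 3397 CPM in myoblasts, and to 1253 CPM in myotube replicate 1 against 344 and 281 CPM in replicates 2 and 3. Myotube replicate 1 also had the lowest sarcomere sum, so values without it are given where they differ. Other cell types were checked by their markers. The 8 adipocyte markers summed to 27.5 to 35.6 CPM in myoblasts and 8.77 to 13.4 CPM in myotubes. Adipoq, Cidec and Cfd were at 0, and the 2 tested markers were lower. The 6 Schwann cell markers summed to at most 116 CPM (Sox10 at 0, none called). The 7 osteoblast markers summed to 1497 to 3622 CPM in myoblasts and 1056 to 1305 CPM in myotubes. Most of that sum was Spp1, which was lower. It was at 1475, 3591 and 3082 CPM in myoblasts and at 1282, 1273 and 1027 CPM in myotubes. In such bulk libraries fewer cells of a type and less RNA per cell cannot be told apart.

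Of the 37 members, 32 passed the filter on low counts, and 16 of these were called higher and 3 lower in myotubes. The called share was 59.4% of the tested members, against 40.1% of all tested genes. Members called higher made up 50.0% (20.5% of all tested genes) and members called lower 9.38% (19.6%). The levels of the groups did not overlap for 22 tested members, 68.8%, against 55.9% of all tested genes. The median log2 fold change was 1.52 over the tested members and 0.06 over all tested genes. Without myotube replicate 1 these medians were 0.95 and 0.01. By class, 9 of 13 tested alpha chains were higher and 2 lower, 2 of 8 beta chains were higher and 1 lower, and 5 of 11 laminin chains were higher and 0 lower. No count is a test of the families, since a gene with few counts in myoblasts passes the filter only where it is high in myotubes. Leaving out each library in turn gave 14 to 16 members higher and 2 or 3 lower, with 16 and 3 when myotube replicate 1 was left out. Scaling by library size alone gave 16 and 5.

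**Figure D1:**
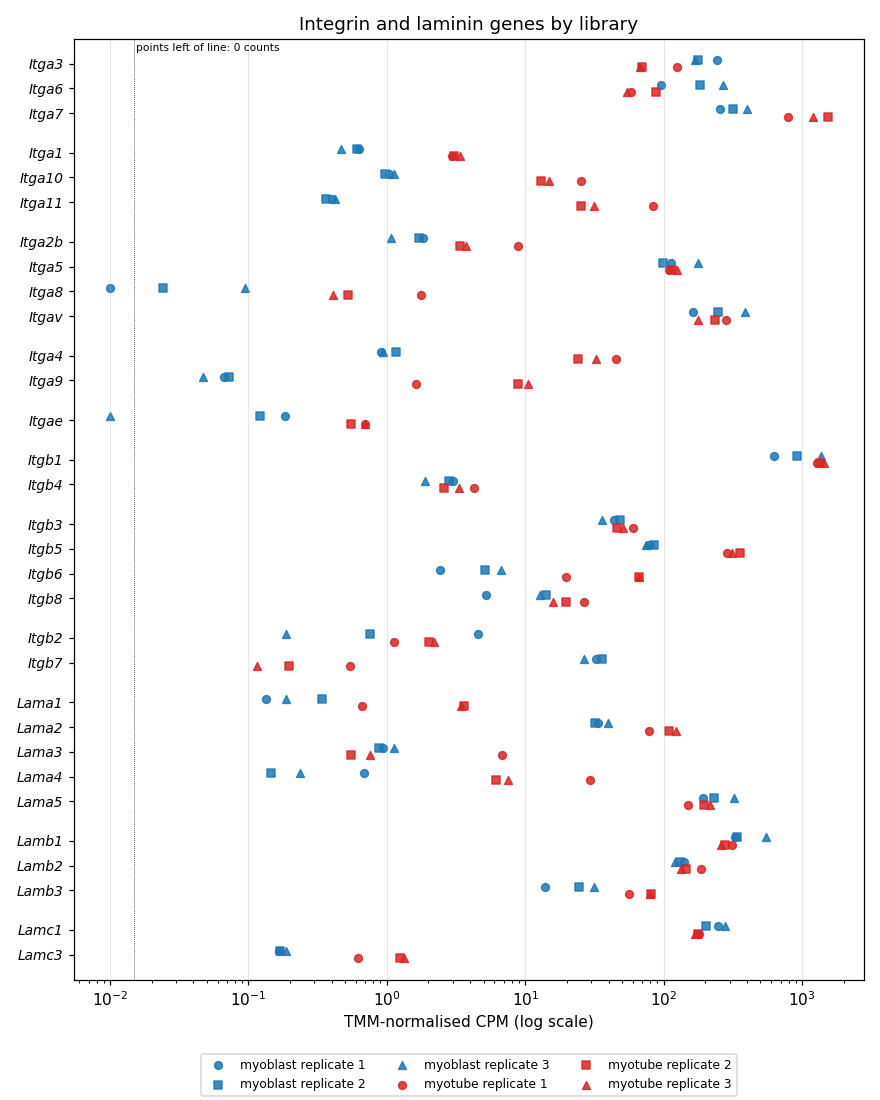
TMM-normalised CPM (x axis, log scale) of tested members (rows, grouped by role) in each library, with points left of the dotted line for libraries with 0 counts. Itgb1 and Itga7 lie farthest right in myotubes, and Itga4, Itga11 and Lama4, which lie near or below 1 CPM in myoblasts, lie between 6.16 and 84.5 CPM in myotubes.

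**Figure D2:**
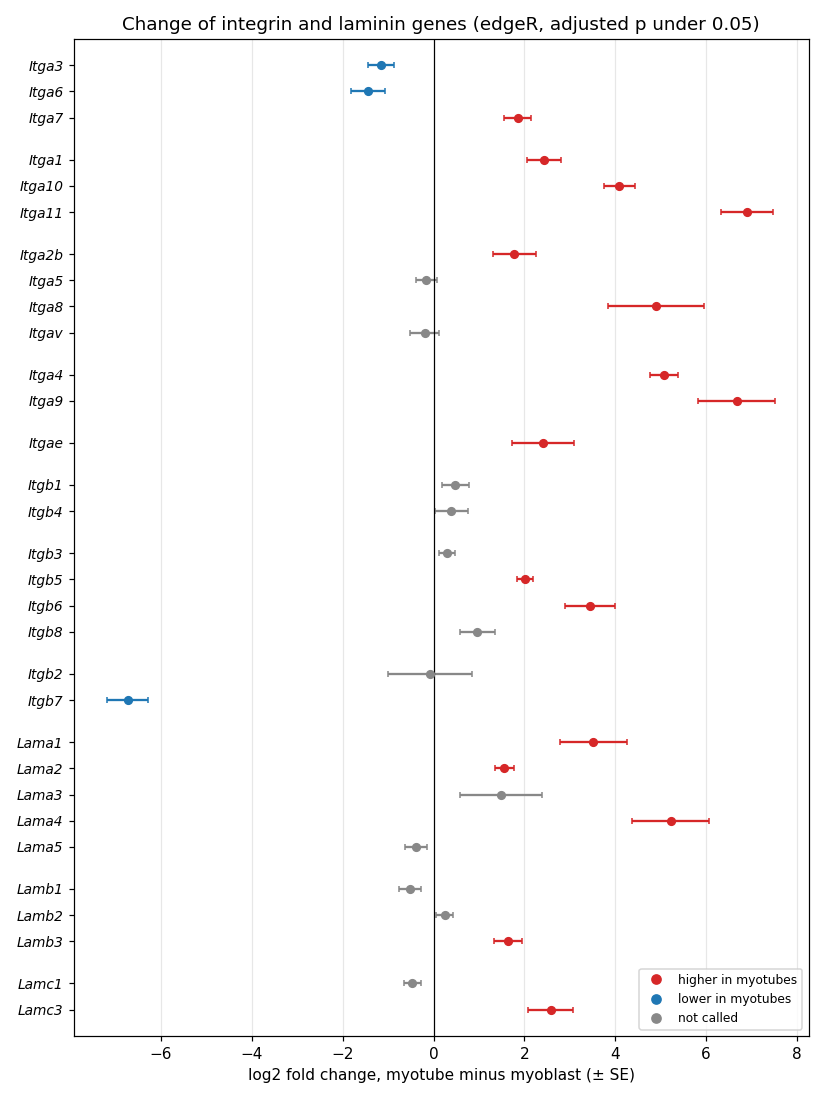
Log2 fold change of tested members, myotube minus myoblast, with bars for the SE and colours for the call (edgeR, adjusted p under 0.05). The points run from -6.73 for Itgb7 to 6.89 for Itga11.

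The alpha7 chain rose while the other laminin-binding alpha chains, Itga3 and Itga6, fell. Itga7 (ENSMUSG00000025348.9, chr10:128933421-128958286 in RefSeq on GRCm38.p6) stood at 256, 318 and 402 CPM in myoblasts and at 789, 1532 and 1198 CPM in myotubes. The highest myoblast library lay below the lowest myotube library, and the log2 fold change was 1.85 ± 0.30 (SE, adjusted p = 0.00244), a 3.60-fold rise. This call was kept in all 12 alternative settings, with log2 fold changes of 1.57 to 2.05 and adjusted p of at most 0.0171. Itga3, the laminin receptor chain best known from epithelia, was at 245, 176 and 168 CPM in myoblasts and at 126, 70.2 and 67.4 CPM in myotubes. It fell by 1.16 ± 0.29 on the log2 scale (SE, adjusted p = 0.0138), with no overlap between the groups. Itga6, which pairs with beta1 or beta4, was at 95.6, 183 and 269.7 CPM and then at 58.4, 87.6 and 54.4 CPM, with a wide spread among the myoblast libraries. Its log2 fold change was -1.45 ± 0.37 (SE, adjusted p = 0.0169), and the call was lost without myoblast replicate 3 (-1.08, adjusted p = 0.0517) or myotube replicate 3 (-1.33, 0.0525). Itga7 overlaps the protein-coding gene Mettl7b in the annotation, which had 0 counts in all 6 libraries, and noncoding genes not examined here. Counts per gene do not separate the splice forms of Itga7 or Itga6.

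The common partner of these chains, Itgb1, was the most abundant member per unit of length in both groups and was not called. Itgb1 (chr8:128685654-128733579) was at 629.7, 917 and 1371 CPM in myoblasts and at 1293, 1353 and 1432 CPM in myotubes. The groups overlapped, since myoblast replicate 3 reached the level of the myotubes, and the log2 fold change was 0.48 ± 0.30 (SE, adjusted p = 0.225). Divided by gene length, Itgb1 stood at 238 ± 91.6 CPM per kb in myoblasts and 333 ± 17.1 in myotubes (SD, n = 3), rank 140 and then rank 79 among the 15932 tested genes. Itga7 moved from 40.2 ± 9.08 to 145 ± 46.0 CPM per kb (SD, n = 3), from rank 1161 to rank 211. There were 5.78 ± 0.941 Itgb1 counts per kb for each Itga7 count per kb in myoblasts and 2.46 ± 0.753 in myotubes (SD, n = 3), with no overlap between the groups. Itgb4, the other beta chain of laminin receptors, which pairs with alpha6 in epithelia, stayed between 1.88 and 4.25 CPM in the 6 libraries and was not called (0.39 ± 0.36, adjusted p = 0.411). The gene Galk1 overlaps the Itgb4 locus, at 40.4 to 63.1 CPM. Its part in the Itgb4 counts was not tested, and the strand setting of the counting was not given.

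Among the 12 alpha chains able to pair with Itgb1, the share of Itga7 in counts per kb was 25.6%, 29.4% and 27.5% in myoblasts and 48.8%, 70.9% and 67.1% in myotubes. The means were 27.5 ± 1.89% and 62.3 ± 11.8% (SD, n = 3), and the myotube libraries all lay above the myoblast libraries. The summed level of the 12 chains was 123, 134 and 181 CPM per kb in myoblasts and 199.6, 267 and 221 in myotubes. Itga3 gave 24.7 ± 9.35% of the sum in myoblasts and 7.00 ± 3.53% in myotubes, and Itga6 13.2 ± 4.19% and 3.16 ± 0.448% (SD, n = 3). Itga5 gave 17.9 ± 2.49% and 10.4 ± 1.51%, and Itgav 16.4 ± 3.81% and 9.61 ± 3.05% (SD, n = 3). In myotube replicate 1, where Itga7 had its lowest myotube share, Itga3 had 11.1% and Itga11 8.25%, against at most 5.35% and 2.80% in the other myotube libraries.

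**Figure D3:**
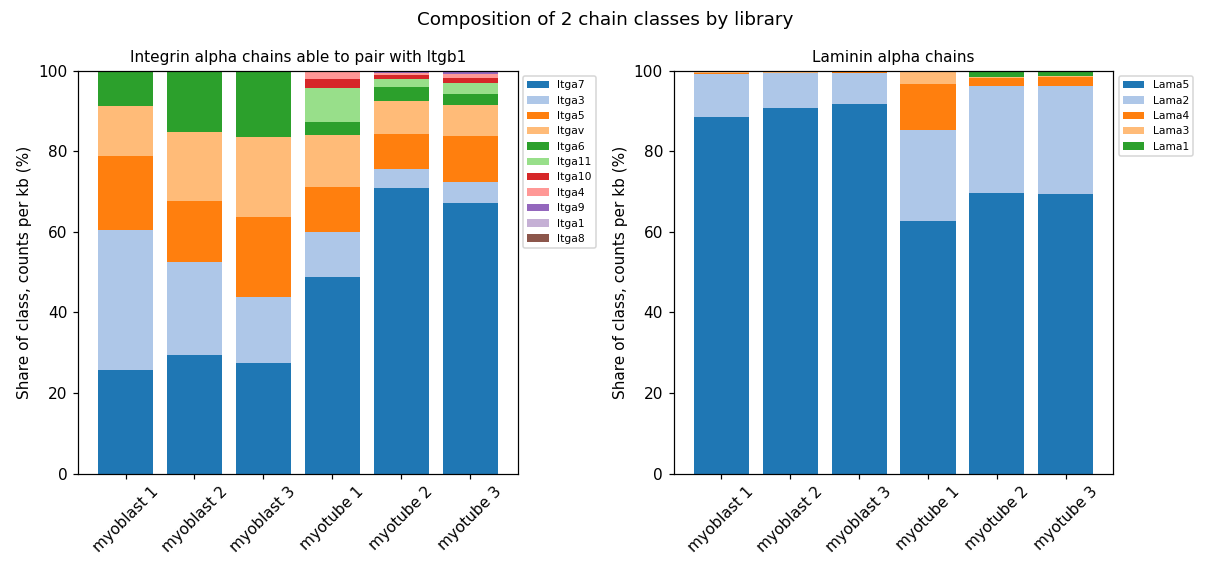
Share of each chain (%, counts per kb, stacked to 100) among the alpha chains able to pair with Itgb1 (left) and among the laminin alpha chains (right) in each library. Itga7 takes 48.8% to 70.9% on the left in myotubes, and Lama2 takes 22.4% to 26.7% on the right.

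Within each library the balance between chains was compared as 9 ratios of counts per kb. Several of them contain Itga7, so they are not independent and share its rise. No share over other pairs of genes was computed. The ratio of Itga7 to Itga3 was 0.737, 1.27 and 1.69 in myoblasts and 4.42, 15.4 and 12.5 in myotubes. That of Itga7 to Itga6 was 3.03, 1.96 and 1.69 in myoblasts and 15.3, 19.8 and 24.9 in myotubes. Against Itga5 the mean ratio went from 1.57 ± 0.328 to 6.13 ± 1.90, and against Itgav from 1.73 ± 0.349 to 7.10 ± 2.93 (SD, n = 3). The ratio of Lama2 to Lama5 went from 0.1004 ± 0.0183 to 0.375 ± 0.0151, and that of Lamb2 to Lamb1 from 0.561 ± 0.179 to 0.888 ± 0.0693 (SD, n = 3). For 8 of the 9 ratios the groups did not overlap, while among single tested genes 55.9% did not. The exact two-sided permutation p of these 8 was 0.1, the smallest that 3 against 3 libraries allow (0.113 adjusted over the 9). The exception was the ratio of Lamc1 to Lamb1, at 0.739 ± 0.147 and 0.745 ± 0.0460 (SD, n = 3, exact permutation p = 1).

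**Figure D4:**
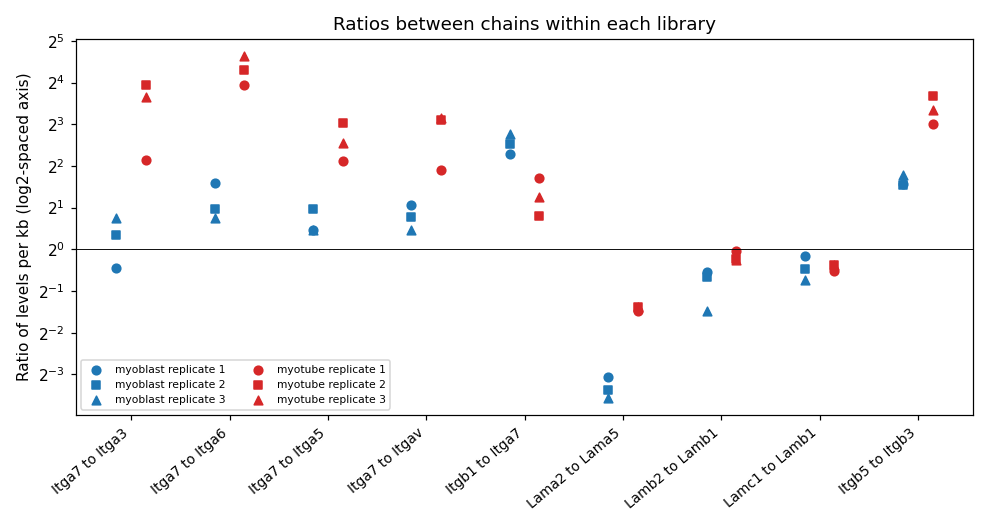
Ratios of counts per kb between pairs of chains (y axis, log2-spaced) in each library. The ratio of Itga7 to Itga3 lies between 0.737 and 1.69 in myoblasts and between 4.42 and 15.4 in myotubes, while Lamc1 to Lamb1 overlaps between the groups.

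The collagen-binding alpha chains rose from low levels. Itga11, a receptor chain for fibrillar collagen, was at 0.401, 0.365 and 0.422 CPM in myoblasts and at 84.5, 25.4 and 31.6 CPM in myotubes. Its log2 fold change was 6.89 ± 0.57 (SE, adjusted p = 0.000182), the largest of the tested members, and 6.14 without myotube replicate 1. Itga10, known from cartilage, was at 1.04, 0.974 and 1.13 CPM and then at 25.4, 13.1 and 14.8 CPM (log2 fold change 4.09 ± 0.34, SE, adjusted p = 0.000166). For both genes myotube replicate 1 was the highest library. Itga1 rose from 0.571 ± 0.0893 to 3.12 ± 0.218 CPM (SD, n = 3), and the call had an adjusted p of 0.00179 (log2 fold change 2.43 ± 0.37, SE). The gene Pelo lies within the Itga1 locus, at 2.28 to 5.80 CPM, and the strand setting of the counting was not given in the sources used here. Itga2 had 0 counts in all 6 libraries, which allows up to 0.0245 CPM over the myoblast and 0.0407 CPM over the myotube libraries. Even after the rise, Itga11 and Itga10 stood at 9.19 ± 6.33 and 3.43 ± 1.29 CPM per kb in myotubes (SD, n = 3), below Itga7 in each library.

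The alpha4 and alpha9 chains, which bind VCAM1, fibronectin and other ligands, also rose. Itga4 was at 0.902, 1.17 and 0.938 CPM in myoblasts and at 45.2, 24.2 and 32.6 CPM in myotubes (log2 fold change 5.08 ± 0.31, SE, adjusted p = 5.54e-05). Itga9 had 8 counts over the myoblast libraries and was at 1.62, 8.87 and 10.5 CPM in myotubes, with the low value in replicate 1. Its log2 fold change was 6.67 ± 0.84 (SE, adjusted p = 0.000795). Itga4 can pair with beta1 or beta7, and Itgb7, the gene for the latter chain, moved the other way. Itgb7 (chr15:102215994-102233405) was at 32.5, 35.8 and 26.8 CPM in myoblasts and at 0.541, 0.196 and 0.116 CPM in myotubes. The fall was 106-fold (log2 fold change -6.73 ± 0.45, SE, adjusted p = 7.57e-05), and -7.57 without myotube replicate 1, the highest of the myotube libraries.

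The chains that bind the RGD sequence of fibronectin and vitronectin were split between abundant chains that were not called and scarce chains that were higher. Itga5, the fibronectin receptor chain, was at 113, 99.5 and 178 CPM in myoblasts and at 109.9, 115 and 125 CPM in myotubes, and its log2 fold change was -0.16 ± 0.24 (SE, adjusted p = 0.606). Itgav was at 163, 246 and 385 CPM and then at 281, 235 and 178 CPM, and its log2 fold change was -0.19 ± 0.32 (SE, adjusted p = 0.650). In both genes the groups overlapped and myoblast replicate 3 was the highest library, and without it the log2 fold changes were 0.12 and 0.16. Itga2b, the platelet chain, was at 1.82, 1.70 and 1.08 CPM and then at 8.81, 3.39 and 3.71 CPM, and was called higher (1.78 ± 0.47, adjusted p = 0.0188). Dropping myoblast replicate 2 or 3 ended that call (adjusted p = 0.0553 and 0.0676), and the value was 1.17 without myotube replicate 1. Itga8, a chain of mesenchyme and smooth muscle, had 3 counts over the myoblast and 69 over the myotube libraries, 38.1-fold apart per library size (95% counting interval 12.5 to 189). Its fitted value of 4.89 ± 1.05 (SE, adjusted p = 0.00778) was 4.05 without myoblast replicate 1, 6.03 without myoblast replicate 3 and 3.93 without myotube replicate 1.

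Of the beta chains that pair with alphaV, Itgb5 and Itgb6 rose. Itgb5, a vitronectin receptor chain, was at 78.0, 84.7 and 74.9 CPM in myoblasts and at 288, 356 and 312 CPM in myotubes. Replicates lay close together, and the log2 fold change was 2.01 ± 0.17 (SE, adjusted p = 0.000183), or 4.02-fold. Per kb it went from rank 2238 to rank 389 among tested genes. It was the second beta chain in both groups, with 8.49 ± 2.74% of the beta chain sum in myoblasts and 20.3 ± 1.65% in myotubes (SD, n = 3). Itgb6, an epithelial chain that binds latent TGF-beta, was at 2.41, 5.11 and 6.71 CPM and then at 19.9, 66.8 and 66.4 CPM (log2 fold change 3.45 ± 0.55, SE, adjusted p = 0.00240). Itgb3 was at 42.6 ± 6.13 and 52.3 ± 6.76 CPM (SD, n = 3) and was not called (0.30 ± 0.18, adjusted p = 0.227). Itgb8 was at 5.197, 14.2 and 12.8 CPM and then at 26.8, 19.9 and 15.8 CPM. Its groups did not overlap, yet it was not called (0.96 ± 0.38, adjusted p = 0.0760), while DESeq2 (0.0495), limma-voom (0.0445) and the fit without a filter (0.0471) called it higher. The 8 epithelial markers summed to 34.8 to 48.5 CPM in myoblasts and 10.1 to 14.9 CPM in myotubes, with Cdh1 higher and Krt14 and Krt19 lower. Their part in the values of Itgb6 and Lamb3 was not tested.

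The leukocyte chains were scarce, at no more than 4.58 CPM in any library, apart from Itgb7 in myoblasts. Itgad, Itgal, Itgam and Itgax did not pass the filter. Itgam had 0 counts over the myoblast libraries and 0, 2 and 4 counts in the myotube libraries, so the groups overlapped. With the myoblast sum set to the floor of 3 counts, the myotube sum of 6 was 3.31-fold higher per library size. The counting error of the 6 counts is not included in that value. Itgax had 0 and 2 counts and Itgad 0 and 1. Itgal had 10, 8 and 0 counts in myoblasts and 1 count in each myotube library, so the groups overlapped. Itgae had 16 and 47 counts and was called higher (2.41 ± 0.68, adjusted p = 0.0241), a call lost without myoblast replicate 2 (0.0739), myotube replicate 2 (0.0558) or myotube replicate 3 (0.0686). Its log2 fold change was 3.02 without myoblast replicate 1. The gene Haspin lies within the Itgae locus and was lower in myotubes (-2.51 ± 0.56, adjusted p = 0.00956). Itgb2 was at 4.58, 0.755 and 0.188 CPM in myoblasts and at 1.12, 2.02 and 2.20 CPM in myotubes, so the groups overlapped (-0.09 ± 0.93, adjusted p = 0.948). Without myoblast replicate 1 its log2 fold change was 1.81 (adjusted p = 0.0635). The 10 leukocyte markers summed to 2.49 to 3.02 CPM in myoblasts and 1.99 to 2.72 CPM in myotubes, with Csf1r called higher (2.22 ± 0.70, adjusted p = 0.0359), Cd68 not called and the T cell gene Cd3e at 0 counts in every library. Their part in the values of Itgae and Itgb2 was not tested.

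Among the laminin alpha chains, Lama2, Lama1 and Lama4 rose and the abundant Lama5 was not called. Lama2 (chr10:26981285-27617191), the alpha chain of muscle laminin, was at 33.7, 32.2 and 39.7 CPM in myoblasts and at 78.6, 110.01 and 122 CPM in myotubes. The groups were apart, and the log2 fold change was 1.56 ± 0.21 (SE, adjusted p = 0.00103), a 2.94-fold rise that was called in all 12 alternative settings. Lama4, a chain of vessel and embryonic basement membranes, was at 0.685, 0.146 and 0.234 CPM and then at 29.2, 6.16 and 7.48 CPM, highest in myotube replicate 1. Its log2 fold change of 5.22 ± 0.84 (SE, adjusted p = 0.00245) was 4.13 without that library and 6.25 without myoblast replicate 1. The 8 endothelial markers summed to 0.563 to 0.852 CPM in myoblasts and 1.22 to 1.69 CPM in myotubes, with Vwf higher and Emcn at 0 counts, and their part in the rise of Lama4 was not tested. Lama1, the alpha chain of the early embryo, rose from 0.221 ± 0.108 to 2.57 ± 1.66 CPM (SD, n = 3), and the call had an adjusted p of 0.00729 (log2 fold change 3.52 ± 0.74, SE). Lama5 was at 192, 229.9 and 322 CPM in myoblasts and at 151, 197 and 218 CPM in myotubes, with overlap, and its log2 fold change was -0.39 ± 0.24 (SE, adjusted p = 0.226). Lama3, an epithelial chain, was at 0.936, 0.877 and 1.13 CPM and then at 6.80, 0.554 and 0.754 CPM. It was not called (1.48 ± 0.90, adjusted p = 0.220), and without myotube replicate 1 its log2 fold change was -0.61.

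Lama5 remained the leading laminin alpha chain after differentiation. Per kb it gave 88.5%, 90.7% and 91.8% of the alpha chain sum in myoblasts and 62.8%, 69.6% and 69.5% in myotubes. Lama2 gave 10.7%, 8.72% and 7.77% in myoblasts and 22.4%, 26.6% and 26.7% in myotubes, each myotube library above each myoblast library. Lama4 gave 0.139 ± 0.139% and 5.25 ± 5.38% (SD, n = 3), with 11.5% in myotube replicate 1. The alpha chain sum itself was 24.01 ± 6.08 CPM per kb in myoblasts and 24.5 ± 3.24 in myotubes (SD, n = 3).

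Of the beta and gamma chains of laminin, the scarcer Lamb3 and Lamc3 rose, while the chains of the common laminins were not called. Lamb1 was at 329, 339 and 550.0 CPM in myoblasts and at 313, 276 and 260.3 CPM in myotubes, and its log2 fold change was -0.52 ± 0.24 (SE, adjusted p = 0.119). Lamc1, the gamma chain of nearly all laminins, was at 246, 203 and 276 CPM and then at 181, 177 and 168 CPM, and its log2 fold change was -0.46 ± 0.18 (SE, adjusted p = 0.0685). In both genes the myotube libraries lay below all myoblast libraries, and both were called lower under scaling by library size (adjusted p = 0.0454 for Lamb1 and 0.0275 for Lamc1). Lamb2, the beta chain of synaptic and mature muscle laminin, was at 139.7, 132 and 120.2 CPM and then at 186, 145 and 134 CPM, with overlap (0.25 ± 0.18, adjusted p = 0.307). Lamb1 made up 61.2 ± 7.02% of the beta chain sum per kb in myoblasts and 43.9 ± 0.666% in myotubes, and Lamb2 33.5 ± 7.77% and 39.0 ± 3.66% (SD, n = 3). Lamb3, an epithelial chain, was at 14.0, 24.7 and 31.7 CPM and then at 56.7, 81.3 and 79.5 CPM (log2 fold change 1.63 ± 0.31, SE, adjusted p = 0.00442). Lamc3 rose from 0.175 ± 0.0110 to 1.06 ± 0.388 CPM (SD, n = 3; 2.58 ± 0.49, adjusted p = 0.00476). Lamc1 kept 93.2 ± 1.77% of the gamma chain sum in myoblasts and 93.3 ± 2.20% in myotubes.

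The 16 members called higher differed in how myotube replicate 1 ranked among the myotube libraries. It was the highest of the 3 for 7 of them (Itga4, Itga10, Itga11, Itgae, Itga2b, Itga8 and Lama4) and the lowest for the other 9 (Itga9, Itga1, Itga7, Itgb5, Itgb6, Lama1, Lama2, Lamb3 and Lamc3). This is the library with 1253 CPM of proliferation markers and the lowest sarcomere sum of the myotubes, and the part of either in these values was not tested. Among myoblasts, replicate 3 was the highest for 17 of the 32 tested members, Itga7, Itgb1, Lama2, Lama5, Lamb1 and Lamc1 among them. These rankings were not computed over all tested genes, so they are not shown to be particular to the members.

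The DNA before a RefSeq start site of members that moved in different ways is shown for 5 genes, picked after their values were seen. These are Itga11, Itgb5 and Lama2, which rose, Itgb7, which fell, and Itgb1, which was not called. The 250 bases before the start site that RefSeq lists first are given (GRCm38.p6, 5′ to 3′ on the strand of the gene), with each E-box (CANNTG, the core bound by MyoD and related factors, the same on both strands) in capitals. For Itga11, Itgb5 and Itgb1 that site is the 5′ end of the gene span, but for Lama2 it lies 249 bases and for Itgb7 1470 bases inside the span, so these windows belong to an internal start.
Itga11 (chr9:62677605-62677854, + strand): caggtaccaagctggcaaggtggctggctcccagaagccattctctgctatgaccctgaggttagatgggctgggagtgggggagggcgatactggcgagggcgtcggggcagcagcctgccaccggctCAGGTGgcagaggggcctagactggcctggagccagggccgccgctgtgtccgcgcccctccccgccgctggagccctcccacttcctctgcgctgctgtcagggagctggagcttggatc
Itgb5 (chr16:33829415-33829664, + strand): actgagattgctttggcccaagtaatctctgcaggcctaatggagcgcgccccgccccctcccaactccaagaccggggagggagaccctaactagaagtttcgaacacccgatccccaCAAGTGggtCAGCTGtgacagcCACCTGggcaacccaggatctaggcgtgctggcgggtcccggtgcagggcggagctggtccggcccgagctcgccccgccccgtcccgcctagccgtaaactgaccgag
Lama2 (chr10:27616943-27617192, - strand): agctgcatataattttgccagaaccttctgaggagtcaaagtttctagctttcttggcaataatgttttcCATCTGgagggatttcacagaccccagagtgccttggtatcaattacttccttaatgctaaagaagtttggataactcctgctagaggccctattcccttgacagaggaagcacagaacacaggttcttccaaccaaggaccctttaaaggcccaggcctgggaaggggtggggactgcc
Itgb7 (chr15:102231936-102232185, - strand): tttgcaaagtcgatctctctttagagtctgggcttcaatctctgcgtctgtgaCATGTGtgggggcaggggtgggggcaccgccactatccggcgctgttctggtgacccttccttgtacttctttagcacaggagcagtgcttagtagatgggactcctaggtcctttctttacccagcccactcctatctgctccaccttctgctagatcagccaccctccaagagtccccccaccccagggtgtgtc
Itgb1 (chr8:128685404-128685653, + strand): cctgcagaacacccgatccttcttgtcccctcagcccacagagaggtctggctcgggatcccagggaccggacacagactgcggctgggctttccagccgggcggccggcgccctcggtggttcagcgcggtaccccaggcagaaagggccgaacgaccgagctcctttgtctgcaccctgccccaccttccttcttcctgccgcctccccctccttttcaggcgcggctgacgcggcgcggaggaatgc

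Itgb5 held 3 E-boxes, Itga11, Lama2 and Itgb7 held 1 each, and Itgb1 held 0. Of the 23 members with such a window, 18 held at least 1 E-box, and so did 66.0% of 27025 genes. The start site was the 5′ end of the gene span for 12 of these members and lay inside it for 11. The GC box GGGCGG, searched on both strands, was in 8 of the 23 and in 32.9% of all. The MEF2 box was searched on both strands only in a loose form, which allows any base at its centre positions. This loose form was in 0 of the 23 and in 3.23% of all, and the TATA box TATAAA in 0 and in 12.97%. The share of all genes with a stricter MEF2 box was not computed. A gene with several windows was counted once, by the one listed first, and these matches describe letters only. Itga7, Lama1, Lama4 and Lamc1 were among the members without a window.

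Partner genes outside the families were counted in 6 lists, and each gene named from them was called. Their counts read against 20.5% higher and 19.6% lower among all tested genes, and no test compared the lists. The tail regulators (20.0% each way) lay near these shares. So did the dystroglycan list in its higher calls (16.7%, with 0 lower) and the membrane partners in their lower calls (18.2%, with 27.3% higher). Of 10 tested basement membrane partners of laminin, 4 were higher and 3 lower (median log2 fold change 0.15), but only 2 and 2 without myoblast replicate 2 or 3. The nidogens, which link laminin to collagen IV, moved apart: Nid2 changed by 1.72 ± 0.39 and Nid1 by -2.31 ± 0.42 (SE). The laminin-binding short netrin Ntn4 rose by 2.96 ± 0.24 and the collagen IV chain Col4a1 changed by -1.65 ± 0.35. Of 11 tested other integrin ligands, 5 were higher and 1 lower (median 0.65, but 0.11 without myotube replicate 1). When single libraries were left out, 4 or 5 were higher and 0 or 1 lower. The fibronectin gene Fn1 was at 1431, 1238 and 3113 CPM in myoblasts and at 8319, 7084 and 8476 CPM in myotubes, and rose by 2.05 ± 0.40 on the log2 scale. Thbs1 (thrombospondin) rose by 2.52 ± 0.32. Osteopontin, Spp1, was called lower (-1.19 ± 0.35, adjusted p = 0.0276), but not when myoblast replicate 2 or 3 or myotube replicate 2 or 3 was dropped (adjusted p = 0.1005, 0.0813, 0.0565 and 0.0827). Of 12 tested genes for dystroglycan and its glycan enzymes, 2 were higher and 0 lower (median -0.02), with 1 lower under library size scaling, with the replicate block or without myotube replicate 1. Dag1, which encodes the other main laminin receptor of muscle, was at 122, 126 and 137 CPM and then at 185, 413 and 453 CPM (1.45 ± 0.32, SE).

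On the cell side, the focal adhesion list held more lower than higher calls. Of 34 tested focal adhesion scaffolds and kinases, 12 were lower and 3 higher (median -0.45), with 6 to 8 lower when myoblast replicate 2 or 3 or myotube replicate 2 was left out. The filamin Flna, which links integrin tails to actin, changed by -1.21 ± 0.29, while the adaptor Sorbs2 rose by 1.78 ± 0.33 and the kinase Fyn by 0.99 ± 0.19 (SE). Of 10 tested integrin tail regulators, 2 were higher and 2 lower (median 0.09), with 1 or 2 in each direction when single libraries were left out. Itgb1bp2, the muscle protein melusin that binds the beta1 tail, was at 1.77, 0.9497 and 1.5005 CPM in myoblasts and at 32.9, 91.1 and 85.4 CPM in myotubes (5.62 ± 0.48, SE). Tln2, the talin of muscle attachment sites, rose by 0.68 ± 0.15, a call lost without myotube replicate 3 (adjusted p = 0.0503). Rap1b changed by -1.13 ± 0.28, which myoblast replicates 2 and 3 were each needed to call (0.0547 and 0.0510 without them), and Fermt3, the kindlin of blood cells, by -2.09 ± 0.58, lost without myotube replicate 2 or 3 (0.0824 and 0.0563). Of 11 tested membrane partners, 3 were higher and 2 lower (median 0.26), with 1 to 3 higher and 1 to 3 lower when single libraries were left out and 4 lower with library size scaling or DESeq2. The urokinase receptor Plaur changed by -4.48 ± 0.35 and galectin Lgals1 by -0.81 ± 0.23. The tetraspanins Cd81 and Cd82 rose by 0.67 ± 0.18 and 1.17 ± 0.31 (SE). The calls of Lgals1, Cd81 and Cd82 were lost in 3, 4 and 4 of the 6 runs without a library. Art1, named after its value was seen, encodes a surface enzyme known to ADP-ribosylate the alpha7 chain. It was at 0.0167, 0.0731 and 0.0938 CPM in myoblasts and at 13.3, 30.5 and 29.7 CPM in myotubes (8.81 ± 0.60, SE, adjusted p = 8.08e-05). The value rests on 6 counts over the myoblast libraries and was 8.16 without myoblast replicate 1.

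**Figure D5:**
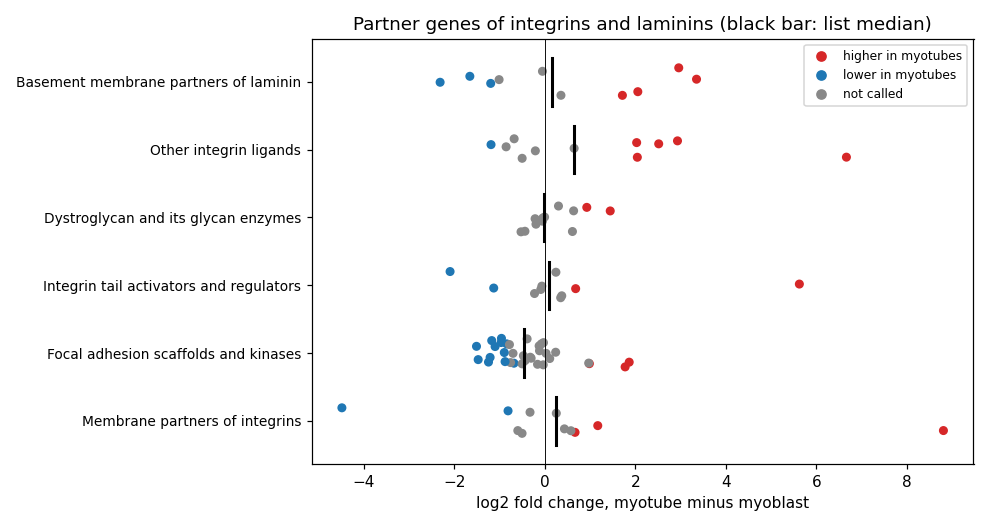
Log2 fold change (x axis, myotube minus myoblast) of each tested gene in 6 lists of integrin and laminin partners, coloured by call, with a black bar at the median of each list. Medians lie between -0.45 and 0.65. Of the genes whose changes are given in the text, Itgb1bp2 and Art1 lie farthest right, at 5.62 and 8.81.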

How the data were processed

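C2C12 gene levels were measured by total RNA-seq (stranded, ribosome-depleting kit, per the labels' protocols). The submitters' processing notes name STAR 2.5.1b, featureCounts 1.5.1, Salmon 0.12.0, DESeq2 1.18.1, bcl2fastq and mm10, without roles. The authors deposited raw counts per Ensembl gene ID with a gene length. The strand setting was not named by any source used here, which makes overlapping genes uncertain. The deposited normalised counts and snoRNA tables were not used. All 37 IDs matched the reference names.

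Counts were fitted with edgeR 4.0.16 (R 4.3.3): filterByExpr (minimum count 10), TMM, robust quasi-likelihood F-test without covariates, Benjamini-Hochberg adjustment over 15932 genes. SE is the absolute log2 fold change over the square root of F. Levels per kb divide CPM by the deposited length of the gene model. The fit was run on simulated counts only to check the code. That simulation set the same dispersion for every gene and changed few genes, unlike these libraries, so it does not bear on the calls. Intervals are exact at 95%; intervals and the floor of 3 counts cover counting error only. No pair of same-group libraries agreed within sampling noise (lowest chi-square over degrees of freedom 94.4).

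Named were the members and, per partner list and direction, the 2 called genes of highest mean level, except that some of these genes are counted but not reported here. Members and lists were chosen with earlier results of these data known. Same-numbered libraries deviated together (r = 0.232, 0.189 and 0.170 over genes, each above 0.1), though the highest r, 0.358, joined myoblast replicate 3 and myotube replicate 2. By that check the replicate numbers of the titles were treated as pairs in an alternative fit. Other alternatives were library size scaling, DESeq2 size factors, no filter, DESeq2 1.42.0, limma-voom 3.58.1 and leaving out each library. Promoter sequences are from RefSeq on GRCm38.p6.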

Additional observations from a re-analysis of the deposited data

How the results depend on the processing

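Over 12 alternative settings, 364 of 384 values for the tested members kept their direction and side of the threshold, 7 lost a call, 6 gained one and 7 changed sign, none of them called. Sign changes were in Itgb2 (0.60 with limma-voom, 0.78 with the replicate block, -0.60 to 1.81 when single libraries were left out, positive at 1.81 without myoblast replicate 1 and at 0.12 without myotube replicate 1), Itgav (-0.46 to 0.16) and Itga5 (-0.34 to 0.12), both positive without myoblast replicate 3, and Lama3 (-0.61 to 1.93, negative without myotube replicate 1). Library size scaling shifted the all-gene median by -0.125 (log2) and gave 5 members lower, against 3. The replicate block gave 16 members higher and 4 lower. Leaving out 1 library gave 14 to 16 higher and 2 or 3 lower. Without division by gene length, Itga7 made up 29.6% of its class in myoblasts, Lama2 12.7% and 33.0% of laminin alpha chains in myoblasts and myotubes, and Lama5 86.8% and 60.3%. The cause of these differences was not tested, except that the length step is the only change in the last. Depth limits the chains under 1 CPM, and 5 members could not be tested. Counts in the partner lists under the same settings were added after seeing the data.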
